A study of Homo sapiens with 6 samples.

Results

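The sites described here are cytosines of messenger RNA that were read as uracil inside a short 3' UTR, the untranslated stretch between the end of the coding sequence and the end of the transcript. A site was taken where the files listed an edit on a protein-coding transcript of GENCODE release 44, on that transcript's strand, in an exon downstream of the last coding base, and where the exonic 3' UTR of that transcript was under 1000 nt long. This gave 37337 distinct sites (a position and strand counted once), which was 6.20% of the 602088 distinct sites of all 6 libraries. They lay in 2855 of 3466 listed transcripts with a short 3' UTR and belonged to 2543 genes. These 3' UTRs were 21 to 999 nt long, with a median of 512 nt and quartiles of 302 and 738 nt, and together held 311325 Cs, each counted once per transcript. Of the sites, 36323 were short 3' UTR in every transcript that listed them, 613 were also listed in a 3' UTR of 1000 nt or more, and 414 were also listed in coding sequence, a 5' UTR or another exon. All of them had C as the reference base, so none could lie in a stop codon, which holds no C.

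The study tested INSCRIBE, in which a purified fusion of the cytosine deaminase APOBEC1 and a nanobody (APO1-Nb) binds a rabbit antibody inside fixed cells and converts nearby C to U, on HEK293T cells, a human embryonic kidney line whose cell line label reads HEK293XT. The cells were fixed with methanol. In RBFOX2-INSCRIBE they were incubated with an antibody against the splicing factor RBFOX2 and given APO1-Nb. In the enzyme-only control APO1-Nb was added but no antibody against RBFOX2, and in the buffer-only control neither was added. RBFOX2-INSCRIBE and buffer-only thus differ in both. Each group had 2 PacBio long-read libraries made from separate wells of this 1 cell line, with no gene altered, so the spread between them covers wells and libraries and not different lines. The titles number the enzyme-only libraries 2 and 3, and these numbers are used here, while the labels' replicate field numbers them 1 and 2. The files give an edit fraction for each edited C on each transcript but no read numbers, so the depth behind a fraction is unknown, and a C with no entry may have been unedited or unread. In such bulk libraries more molecules of an isoform and more editing per molecule cannot be told apart. All libraries together listed 71398 to 205765 distinct sites each, and the enzyme-only pair differed from each other more than the other pairs did, with 85973 and 153712.

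RBFOX2 is an RNA-binding protein that regulates alternative splicing and also binds 3' UTRs, and its RNA recognition motif domain binds the hexamer UGCAUG, or less tightly the pentamer GCAUG. APOBEC1 works on single-stranded RNA and favours a C that follows A or U. A 3' UTR carries binding sites for proteins and microRNAs and ends with the polyadenylation signal, most often AAUAAA, a little before the cleavage site, so a short 3' UTR offers few such sites and places them close to both the coding sequence and the poly(A) tail.

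The stretches below show edited Cs that stood beside UGCAUG in short 3' UTRs. They were chosen for the highest value of the lower of the 2 RBFOX2-INSCRIBE edit fractions, among sites listed in both RBFOX2-INSCRIBE libraries and in none of the other 4, with the edited C and UGCAUG inside 30 nt, so their fractions describe the choice. Each is written 5' to 3' as RNA, from the hg38 genome, with UGCAUG and the edited C in capitals.
MAEA: uauuuuUGCAUGuugauguugaCuagcuaa
HTATSF1: uuCuuuugucagauuuguuaaaUGCAUGca
DSP, C before the motif: auuaauuugaCugUGCAUGacagcggcaau
DSP, C after the motif: cugUGCAUGacagcggcaaucuuuuCuuug
PTPN12: uucUGCAUGgucuaaaucuuuguguaCuuu
AP3S1: uguauUGCAUGaaaacauuaugaCuuuuuu
DCAF6: aCauugguuuggaaugauugugUGCAUGaa
WDR20: aauuuuggauaCUGCAUGccauguaauucu
ZFAND6: gagcaguguauCuUGCAUGucaucggaaga

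MAEA encodes a subunit of a ubiquitin ligase complex, and its stretch is chr4:1340060-1340089 on the plus strand. The edited C at position 1340082 lay 11 nt downstream of the motif and 55 nt before the transcript end, and 8.14% and 5.38% of its reads were edited in RBFOX2-INSCRIBE replicates 1 and 2. HTATSF1 encodes a factor of transcription elongation and splicing, and its stretch is chrX:136512236-136512265 on the plus strand. Its edited C at 136512238 lay 20 nt upstream of the motif, with fractions of 7.45% and 4.32%. DSP encodes desmoplakin, which ties desmosomes to intermediate filaments. Its stretches are chr6:7586437-7586466 and chr6:7586447-7586476 on the plus strand, and they share the motif. The Cs at 7586447 and 7586472 lay 3 nt upstream and 17 nt downstream of it, and each had fractions of 3.03% and 3.57%. One UGCAUG of DSP was thus flanked by edited Cs on both sides. Their fractions were equal in each library, and whether the same reads carried both edits is unknown.

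PTPN12 encodes a tyrosine phosphatase, and its stretch is chr7:77639687-77639716 on the plus strand, with fractions of 3.03% and 2.78%. AP3S1 encodes a subunit of a vesicle adaptor complex, with chr5:115913914-115913943 on the plus strand and fractions of 2.71% and 3.05%. DCAF6, a substrate receptor of a cullin ubiquitin ligase, has its stretch at chr1:168075571-168075600 on the plus strand, with fractions of 2.52% and 3.77%. The edited C of these 3 genes followed an A. WDR20, a cofactor of deubiquitinating enzymes, has its stretch at chr14:102210007-102210036 on the plus strand, where the edited C at 102210018 touched the motif and had fractions of 2.33% and 10%. ZFAND6, a zinc finger protein gene, has its stretch at chr15:80137714-80137743 on the plus strand, with fractions of 2.78% and 2.27%. Another site of this kind lay in CZIB (chr1:53214442-53214471, minus strand), with fractions of 7.41% and 4.55%. By its lower fraction it stood between MAEA and HTATSF1. Its edited C followed a G, whereas those in the stretches shown followed A or U.

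The highest site found only in both RBFOX2-INSCRIBE libraries had no UGCAUG in the 30 nt shown. It lay in the 3' UTR of TAX1BP1, which encodes an autophagy receptor, at chr7:27829182-27829211 on the plus strand, with the edited C in capitals.
TAX1BP1: aauauucacaaguuuCuguugaccuuguug
Its fractions were 14.3% and 13.3%. The edited C followed a U, 371 nt after the last coding base and 570 nt before the transcript end. The 3' UTR of TAX1BP1 held 1 UGCAUG outside this stretch.

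RBFOX2-INSCRIBE had more edited Cs in short 3' UTRs than either control, in each of its libraries. The 2 RBFOX2-INSCRIBE libraries listed 13555 and 12002 distinct sites, the enzyme-only libraries 7129 (replicate 2) and 9080 (replicate 3), and the buffer-only libraries 4087 and 3937. The groups did not overlap. The means were 12778.5 ± 1098.1, 8104.5 ± 1379.6 and 4012.0 ± 106 (SD, n = 2), so that RBFOX2-INSCRIBE was 1.58-fold above enzyme-only and 3.19-fold above buffer-only, and enzyme-only was 2.02-fold above buffer-only. With 2 libraries against 2, an exact permutation test, two-sided, cannot give a p below 0.333, and it gave 0.333 here, as it does wherever the values of 2 groups of 2 do not overlap. Against enzyme-only replicate 2 the ratio was 1.79 and against replicate 3 it was 1.41. Over all distinct sites of the series RBFOX2-INSCRIBE was 1.70-fold above enzyme-only and 2.82-fold above buffer-only. Short 3' UTRs held 6.76% and 5.83% of the sites of each library in RBFOX2-INSCRIBE. The shares were 8.29% and 5.91% in enzyme-only and 5.62% and 5.51% in buffer-only, so RBFOX2-INSCRIBE and enzyme-only overlapped in this share.

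Edits on the opposite strand of the same 3' UTRs, which read as G-to-A and are not made by a C deaminase acting on the transcript, numbered 540 and 459 in RBFOX2-INSCRIBE, 519 and 484 in enzyme-only and 517 and 456 in buffer-only. The RBFOX2-INSCRIBE mean was 0.996 times that of enzyme-only, with an exact permutation p of 1.00. There were 25.1 and 26.1 C-to-U sites for each opposite-strand site in RBFOX2-INSCRIBE, 13.7 and 18.8 in enzyme-only, and 7.91 and 8.63 in buffer-only. The count of transcripts with an edited short 3' UTR varied less than the count of sites, with 2016 and 1805 in RBFOX2-INSCRIBE, 1811 and 1798 in enzyme-only and 1393 and 1377 in buffer-only.

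**Figure D1:**
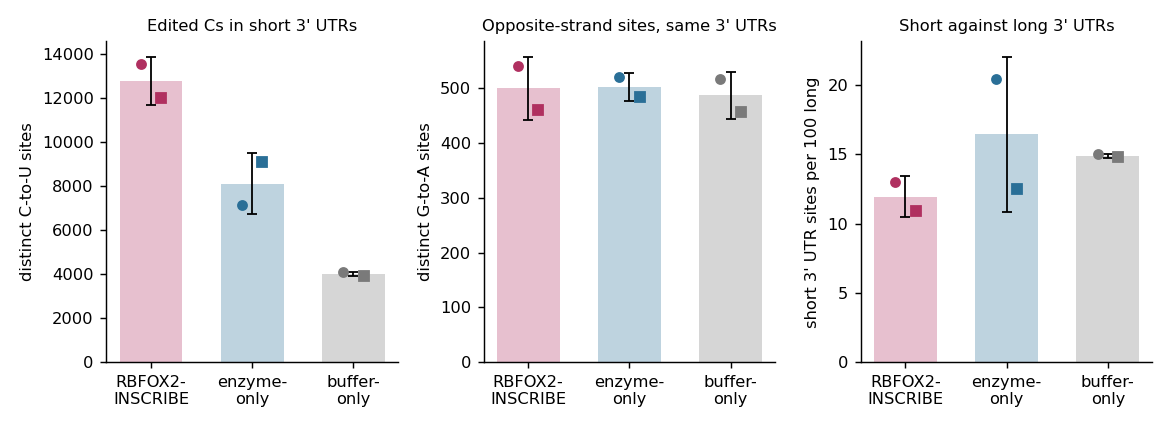
Distinct C-to-U sites in short 3' UTRs (left), distinct opposite-strand G-to-A sites in the same 3' UTRs (middle) and short 3' UTR sites per 100 sites in 3' UTRs of 1000 nt or more (right). Bars are group means, error bars the SD of 2 libraries, circles the first and squares the second library of each group; C-to-U sites run from 3937 to 13555, while opposite-strand sites lie between 456 and 540 in every library.

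The gain of RBFOX2-INSCRIBE over enzyme-only was 1.58-fold in short 3' UTRs, 2.00-fold in 3' UTRs of 1000 nt or more (long 3' UTRs), 1.43-fold in coding sequence and 1.26-fold in 5' UTRs. The order of short and long 3' UTRs rested mostly on enzyme-only replicate 2. That library held 20.4 short 3' UTR sites per 100 long ones, against 12.5 in enzyme-only replicate 3, 13.0 and 10.9 in RBFOX2-INSCRIBE and 15.0 and 14.8 in buffer-only. On the log2 scale the gain in short 3' UTRs was below that in long 3' UTRs by 0.34, and by 0.08 when enzyme-only replicate 2 was left out. An exact permutation test of the ratio within each library gave p = 0.667, so the smaller gain of short 3' UTRs was within the spread of the libraries.

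Edit fractions were low in all groups. The median fraction of a site was 0.613% and 0.658% in RBFOX2-INSCRIBE, 0.578% and 0.595% in enzyme-only, and 0.510% and 0.546% in buffer-only. A fraction of at least 0.02 was reached by 15.6% ± 0.944 of the sites with RBFOX2-INSCRIBE, 14.7% ± 0.261 with enzyme-only and 14.3% ± 0.535 with buffer-only (SD, n = 2). The groups differed by less in these fractions than in the number of edited Cs. Sites with a fraction of at least 0.3 were few, with 12 and 13 in RBFOX2-INSCRIBE, 3 and 5 in enzyme-only and 3 and 1 in buffer-only.

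The base before the edited C differed between the groups. A or U preceded 75.8% and 78.5% of the edited Cs in RBFOX2-INSCRIBE, 62.1% and 69.5% in enzyme-only, and 42.8% and 43.2% in buffer-only. The group means were 77.1% ± 1.87, 65.8% ± 5.22 and 43.0% ± 0.326 (SD, n = 2). To allow for base composition, each share was divided by the share among all Cs of the same 3' UTRs, weighted by the edited Cs of each. On this measure Cs after A were edited 1.60 ± 0.0259 times as often as their number would give in RBFOX2-INSCRIBE and 1.44 ± 0.0730 times in enzyme-only, but 0.819 ± 0.0204 times in buffer-only. Cs after G ran the other way, at 0.672 ± 0.0443, 0.939 ± 0.109 and 1.51 ± 0.00331 times. The 2 groups with enzyme thus shared the excess after A, and the buffer-only sites, which arose without added enzyme, had theirs after G.

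**Figure D2:**
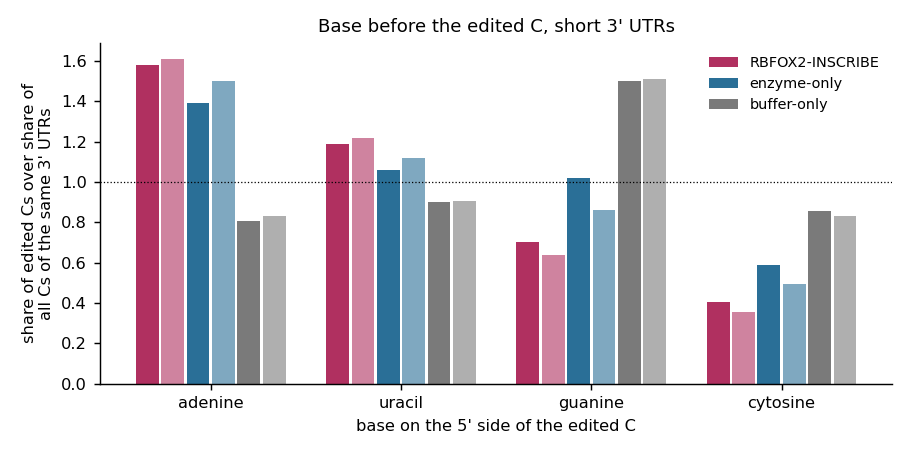
Share of edited Cs with each base on their 5' side, divided by the share of all Cs of the same short 3' UTRs; each bar is 1 library, the darker bar of each colour being the first library of the group, and the dotted line marks equality. Bars after adenine stand at 1.58 and 1.61 in RBFOX2-INSCRIBE and at 0.805 and 0.833 in buffer-only, and bars after guanine at 0.703 and 0.640 against 1.50 and 1.51.

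UGCAUG lay near more of the edited Cs in RBFOX2-INSCRIBE than in the controls. Within 50 nt in the spliced transcript, 4.33% and 4.35% of the edited Cs had the motif in RBFOX2-INSCRIBE, 2.50% and 2.70% in enzyme-only, and 2.47% and 2.44% in buffer-only. Divided by the share of all Cs of the same 3' UTRs, weighted as above, the enrichment was 1.25 ± 0.00305 in RBFOX2-INSCRIBE, 1.00 ± 0.0533 in enzyme-only and 1.06 ± 0.00550 in buffer-only (SD, n = 2). The RBFOX2-INSCRIBE libraries lay above the 4 control libraries, whose ratios ran from 0.967 to 1.07. For the shorter GCAUG, every UGCAUG included, the enrichment was 1.16, 0.967 and 1.07 in the same order. AAUAAA, searched as a comparison of the transcript end and on the transcript strand like the other motifs, had 0.930, 0.929 and 0.855.

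In long 3' UTRs the enrichment of UGCAUG was 1.58 ± 0.0340 in RBFOX2-INSCRIBE, against 0.983 ± 0.00942 in enzyme-only. The enrichment in short 3' UTRs was lower than that in long 3' UTRs by 0.304 and 0.356 in the RBFOX2-INSCRIBE libraries. The expected share came from the same 3' UTRs, and a window of 50 nt covers more of a short one. An equal local excess thus gives a ratio nearer to 1 there, and the part of this in the difference was not tested. In the enzyme-only libraries the short minus long difference was -0.00920 and 0.0529, and in buffer-only 0.0555 and 0.0454. The 2 RBFOX2-INSCRIBE values lay apart from the other 4, and the exact permutation p against enzyme-only was 0.333, the smallest that this design can give. Among the hexamers expected within 50 nt of at least 20 edited Cs, UGCAUG ranked 49 of 4011 and 58 of 3989 by enrichment in RBFOX2-INSCRIBE, and 2528 and 1233 in enzyme-only. With at least 100 expected, a minimum chosen after these ranks were seen, it ranked 5 of 3044 and 16 of 2977, against 1835 of 2653 and 881 of 2874 in enzyme-only.

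Editing in RBFOX2-INSCRIBE was high on both sides of the motif and low in it. The reference was the Cs more than 100 nt from any UGCAUG, in the 3' UTRs of 1055 transcripts with UGCAUG in their exons. Only 417 short 3' UTRs held the motif themselves, so the reference also took in 3' UTRs without it. The ratios below thus mix distance from the motif with differences between 3' UTRs, and the part of each was not tested. Cs 1 to 10 nt upstream were edited 1.83 and 1.92 times as often as these in the 2 RBFOX2-INSCRIBE libraries. Downstream, Cs 1 to 10 nt away were edited 1.85 and 1.80 times as often. At 11 to 25 nt downstream the ratios were 1.78 and 2.00, and at 51 to 100 nt downstream they were still 1.37 and 1.40. In enzyme-only the ratios for all distances outside the motif lay between 0.884 and 1.27. The C of UGCAUG itself, which follows a G, was edited 0.591 and 0.616 times as often as distant Cs in RBFOX2-INSCRIBE. Beside distant Cs that also follow G it was edited about as often. Of 460 motif Cs, 2.61% and 2.39% were edited in RBFOX2-INSCRIBE, beside 2.63% and 2.14% of the distant Cs after G. The counts behind these shares were 12 and 11 edited motif Cs in RBFOX2-INSCRIBE, 7 and 9 in enzyme-only and 6 and 12 in buffer-only.

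**Figure D3:**
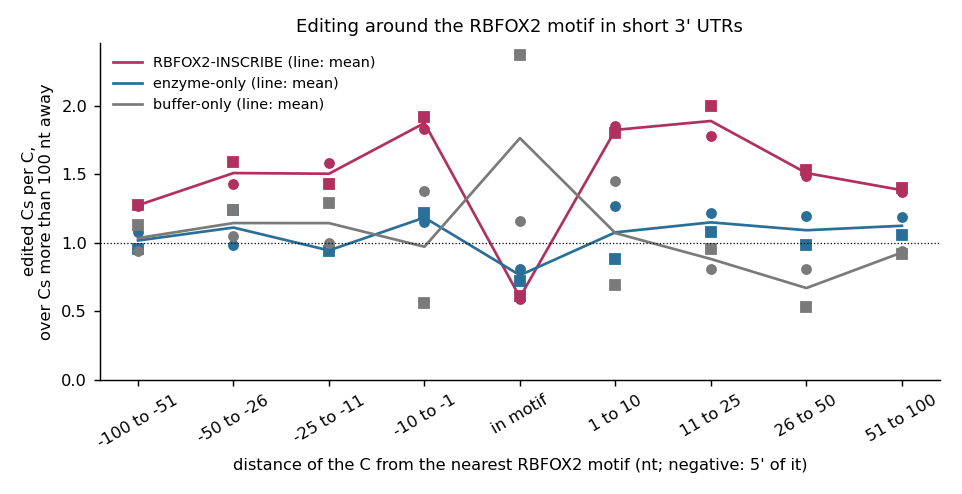
Edited Cs per C by distance from the nearest RBFOX2 motif (UGCAUG), divided by the value for Cs more than 100 nt away (dotted line at 1), which include Cs of 3' UTRs without the motif. Lines are group means, circles and squares the first and second library of each group. RBFOX2-INSCRIBE stands at 1.80 to 1.92 within 10 nt on either side and at 0.591 and 0.616 in the motif, while the buffer-only points, which rest on few edited Cs, scatter from 0.535 to 2.37.

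A UGCAUG was present in 417 of the 2855 short 3' UTRs (14.6%), with 456 motifs in all. In the 3' UTRs with a motif, 5.61% and 4.99% of the Cs were edited in RBFOX2-INSCRIBE and 2.10% and 2.85% in enzyme-only. In those without, the shares were 4.17% and 3.67%, then 2.34% and 2.95%. The ratio of with to without was 1.35 ± 0.0101 in RBFOX2-INSCRIBE, 0.932 ± 0.0486 in enzyme-only and 0.824 ± 0.00996 in buffer-only (SD, n = 2), with no overlap between the groups. The ratio of RBFOX2-INSCRIBE to enzyme-only was 1.48 in 3' UTRs with no UGCAUG, 2.11 in the 380 with 1 and 2.56 in the 37 with 2 or more. The 3' UTRs with a motif were longer, with a median of 672 nt against 478 nt. Within 3' UTRs of 500 to 999 nt, a restriction added after these values were seen, the ratio of with to without was 1.25 ± 0.0361 in RBFOX2-INSCRIBE and 0.926 ± 0.0232 in enzyme-only.

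Inside the short class, more Cs were edited in the longer 3' UTRs of both RBFOX2-INSCRIBE libraries, and the ratio to enzyme-only was higher there as well; the change of the ratio with length was not tested. In 3' UTRs of 1 to 249 nt, 2.93% and 2.20% of the Cs were edited in RBFOX2-INSCRIBE and 2.38% and 1.99% in enzyme-only, so the groups overlapped. In those of 750 to 999 nt the shares were 4.80% and 4.47% against 2.07% and 3.16%. The ratio of RBFOX2-INSCRIBE to enzyme-only was 1.17, 1.36, 1.59 and 1.77 over the 4 length classes from shortest to longest. Buffer-only stayed between 1.00% and 1.24% in all 4 classes. The share of Cs that follow A or U was 47.5%, 47.3%, 47.8% and 50.1% in the same classes.

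The enrichment of UGCAUG in RBFOX2-INSCRIBE was highest in the longest class and did not rise steadily with length. In 3' UTRs of 750 to 999 nt it was 1.35 ± 0.0495 in RBFOX2-INSCRIBE and 0.934 ± 0.0290 in enzyme-only, and in those of 500 to 749 nt it was 1.21 ± 0.0636 and 1.04 ± 0.139. In 3' UTRs of 250 to 499 nt the values were 1.09 ± 0.0707 and 1.07 ± 0.0566, and in those under 250 nt 1.21 ± 0.0919 and 1.15 ± 0.0566, differences smaller than or close to the spread of the libraries. The buffer-only libraries had 1.15 and 1.16 under 250 nt and 1.11 and 1.24 at 250 to 499 nt. At 500 to 749 nt they had 1.14 and 1.04, and at 750 to 999 nt 1.04 and 0.947. Restricted to 3' UTRs under 500 nt, the difference in enrichment between RBFOX2-INSCRIBE and enzyme-only was 0.0497, against 0.244 for all short 3' UTRs. Whether the motif difference itself changed with length was not tested, and the fixed window, which covers more of a shorter 3' UTR, limits this comparison too. At the edge of the class, the ratio of RBFOX2-INSCRIBE to enzyme-only was 1.87 in 3' UTRs of 900 to 999 nt, just inside, and 1.88 in those of 1000 to 1099 nt, just outside. The enrichment of UGCAUG was 1.51 ± 0.0141 just inside and 1.17 ± 0.134 just outside in RBFOX2-INSCRIBE, and 0.998 ± 0.0177 and 0.693 ± 0.255 in enzyme-only. In the buffer-only libraries it was 1.25 and 0.649 just inside, and 0.787 and 1.41 just outside.

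**Figure D4:**
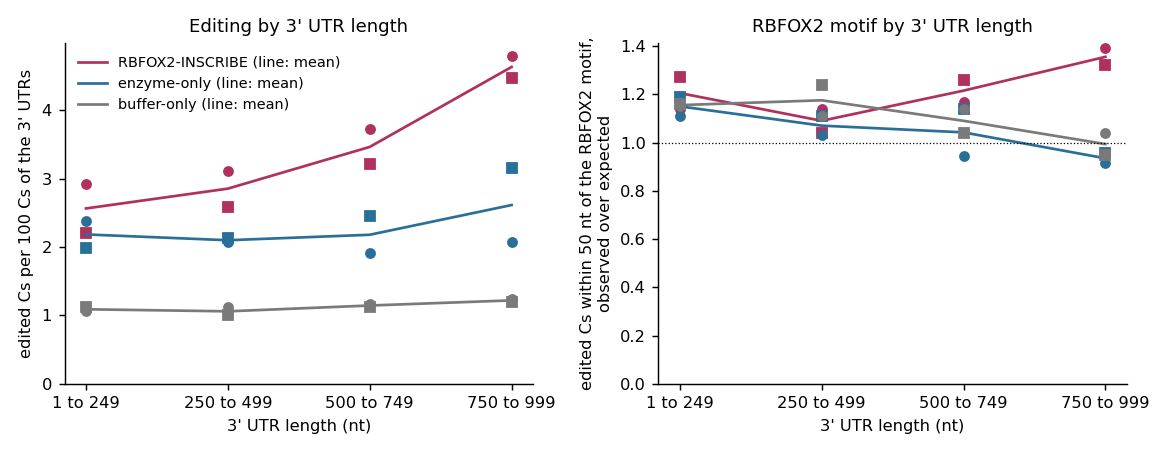
Edited Cs per 100 Cs (left) and enrichment of edited Cs within 50 nt of the RBFOX2 motif (right) by 3' UTR length; lines are group means, circles and squares the first and second library of each group. RBFOX2-INSCRIBE rises from 2.93 and 2.20 to 4.80 and 4.47 edited per 100 Cs. Its motif ratios lie above both enzyme-only libraries in the classes of 500 to 749 nt (1.17 and 1.26 against 0.944 and 1.14) and 750 to 999 nt.

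Along the 3' UTR, edited Cs were fewer close to the transcript end in every group. In the last 50 nt the share of edited Cs was 0.747 ± 0.00342 times the share of all Cs in RBFOX2-INSCRIBE, 0.745 ± 0.0333 times in enzyme-only and 0.683 ± 0.0287 times in buffer-only. For the last 100 nt the ratios were 0.848, 0.853 and 0.780, and the shares themselves were 13.0% ± 0.257, 14.3% ± 1.41 and 13.0% ± 0.889 (SD, n = 2). RBFOX2-INSCRIBE and buffer-only overlapped in that share, with an exact permutation p of 1.00. At the other end, the first 100 nt after the coding sequence held 19.6% ± 0.356 of the edited Cs in RBFOX2-INSCRIBE, 24.0% ± 2.44 in enzyme-only and 25.4% ± 0.420 in buffer-only. Against all Cs these were 0.964, 1.06 and 1.12 times.

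Most sites were seen once. Of the 37337 sites, 28037 were listed in 1 library, 6646 in 2, 2214 in 3, 381 in 4 and 59 in 5. None was listed in all 6 libraries, nor in every one of the 4 libraries made with RBFOX2-INSCRIBE or enzyme-only. Per the study's methods, the authors removed edits found across all samples as putative SNPs. The 2 RBFOX2-INSCRIBE libraries shared 3505 sites, 29.2% of the smaller library, the enzyme-only libraries 925 (13.0%) and the buffer-only libraries 357 (9.07%). The groups differ in sites per library too. The parts of library size and of the removal of shared edits in these shares were not tested. In RBFOX2-INSCRIBE, 1899 sites in 594 genes were listed in both libraries and in none of the other 4. Of these, 92.1% followed A or U and 52.7% followed A, and 128 (6.74%) had UGCAUG within 50 nt, against 4.55% expected from all Cs of the same 3' UTRs. For the 423 sites listed only in both enzyme-only libraries the share was 2.36% against 2.62% expected. None of the 110 sites listed only in both buffer-only libraries was near the motif, where 1.84% was expected.

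To ask which 3' UTRs gained edits, limma was fitted to log2((edited Cs + 0.5) / Cs) over all transcript regions that averaged 3 or more edited Cs, and the short 3' UTRs were read from that fit at a Benjamini-Hochberg adjusted p of 0.05. Against enzyme-only, limma called 0 of 916 short 3' UTRs, and 195 had an unadjusted p under 0.05, of which 188 were higher in RBFOX2-INSCRIBE. Over all 9609 regions tested it called 0% higher and 0% lower, with 1253 at an unadjusted p under 0.05. The median log2 difference was 0.79 in the short 3' UTRs and 0.83 in all regions.

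Against buffer-only, limma called 408 of 771 short 3' UTRs higher and 2 lower, beside 38.4% of all 8902 regions called higher and 0.0786% called lower. The median log2 difference was 1.89 in short 3' UTRs and 1.49 in all regions. Of the tested 3' UTRs with UGCAUG, 104 of 162 (64.2%) were called higher, and of those without 304 of 609 (49.9%). When the libraries were scaled to the same total of edited Cs, which lowered the median of all regions by 1.38 on the log2 scale, limma called 0 of these 3' UTRs (243 at an unadjusted p under 0.05, 177 of them higher), and the calls above are thus relative to the unscaled number of edits. Without either buffer-only library limma also called 0, and without either RBFOX2-INSCRIBE library 105 or 103. The enzyme-only libraries had 0 of 604 short 3' UTRs called against buffer-only by limma, with 181 at an unadjusted p under 0.05, beside 0.0134% of 7435 regions called higher and 0.0134% called lower.

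The 2 short 3' UTRs called lower with RBFOX2-INSCRIBE than with buffer-only were those of CPT2, a mitochondrial enzyme of fatty acid oxidation, and NUDC, a protein of nuclear movement and cell division. CPT2 had 0 and 0 edited Cs in RBFOX2-INSCRIBE, 1 and 0 in enzyme-only and 9 and 5 in buffer-only (limma adjusted p = 0.00898). NUDC had 2 and 1, then 15 and 7, then 10 and 6 (limma adjusted p = 0.0320). Neither held a UGCAUG. In NUDC the enzyme-only libraries were as high as buffer-only.

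Since limma called none against enzyme-only, the 10 short 3' UTRs with the smallest p are described, as counts of edited Cs. Their adjusted p ran from 0.234 to 0.319. Of the 10, 7 held UGCAUG, as 184 of the 916 tested short 3' UTRs (20.1%) did. DCAF6 (ENST00000367843), with 2 motifs among 411 nt at chr1:168075433-168075843, had 9 and 12 edited Cs of 50 in RBFOX2-INSCRIBE and 0 in each of the 4 control libraries. The 24 Cs near its motifs held 7 and 6 of these edits. DSP (ENST00000379802), with 1 motif among 839 nt at chr6:7585876-7586714, had 25 and 31 edited Cs of 137, against 0 and 2 in enzyme-only and 0 and 1 in buffer-only. Its 14 Cs within 50 nt of the motif held 7 and 10 of them. That was 20.4% ± 3.10 of its Cs in RBFOX2-INSCRIBE, 0.730% ± 1.03 in enzyme-only and 0.365% ± 0.516 in buffer-only (SD, n = 2). MBIP (ENST00000416007), a subunit of a histone acetyltransferase complex, with 1 motif at chr14:36298564-36299085, had 26 and 29 edited Cs of 68, against 2 and 5, and 2 and 2.

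HTATSF1 (ENST00000535601) had 16 and 20 edited Cs of 41 at chrX:136512011-136512342, against 0 and 3 in enzyme-only and 2 and 2 in buffer-only, which is 43.9% ± 6.90 of its Cs in RBFOX2-INSCRIBE. WDR20 (ENST00000342702) had 14 and 4 against 0 and 0, and 2 and 1, so its RBFOX2-INSCRIBE libraries differed widely. PJA1 (ENST00000374571), a ubiquitin ligase gene, had 11 and 7 against 0 and 1, and 0 and 0. NGLY1 (ENST00000280700), whose enzyme strips N-glycans from misfolded proteins, had 2 motifs and 15 and 7 edited Cs against 1 and 1, and 0 and 1. These 4 completed the 7 with a motif, and in each of them both RBFOX2-INSCRIBE libraries lay above all 4 controls.

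The 3 without UGCAUG were MGAT2, SPRY2 and BTG3. MGAT2 (ENST00000305386), an enzyme of N-glycan synthesis in the Golgi, had 27 and 28 edited Cs of 118 at chr14:49622610-49623481, against 1 and 3 in enzyme-only and 1 and 1 in buffer-only. This was the closest agreement of the 2 RBFOX2-INSCRIBE libraries among the 10, at 23.3% ± 0.599 of its Cs. SPRY2 (ENST00000377104), an inhibitor of receptor tyrosine kinase signalling, had 4 and 11 edited Cs and 0 in all controls. BTG3 (ENST00000348354), an antiproliferative protein gene, had 18 and 13 against 2 and 3, and 0 and 1. A motif in the 3' UTR was thus not needed for a place among the 10.

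**Figure D5:**
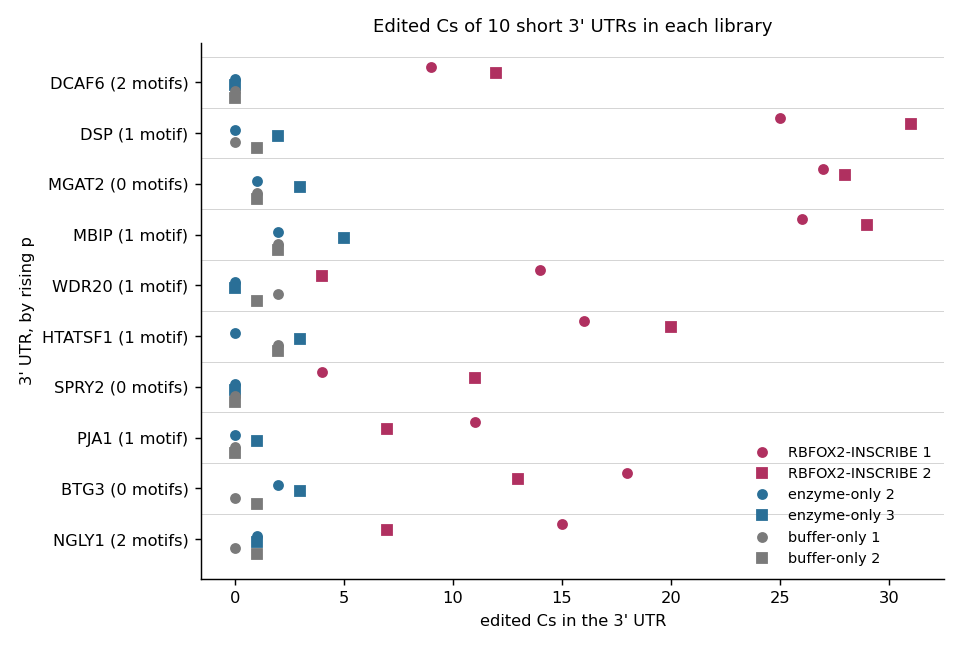
Edited Cs in each of the 6 libraries for the 10 short 3' UTRs with the smallest p against enzyme-only, with the number of RBFOX2 motifs in each 3' UTR in brackets. Circles are the first and squares the second library of each group; every RBFOX2-INSCRIBE point lies to the right of all control points of its row, and these 3' UTRs were chosen for that difference.

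Among the 10 most edited short 3' UTRs the log2 difference between RBFOX2-INSCRIBE and enzyme-only ran from -0.57 for MARCKSL1 to 1.38 for NARS1, beside a median of 0.79 over the tested short 3' UTRs. PGAM1, a glycolytic enzyme gene, had 73 and 56 edited Cs of 227 in RBFOX2-INSCRIBE, 58 and 61 in enzyme-only and 45 and 39 in buffer-only, so RBFOX2-INSCRIBE and enzyme-only overlapped. PKM, the pyruvate kinase gene, had 49 and 50, then 25 and 47, then 38 and 33. EEF2, the elongation factor that moves the ribosome along, had 48 and 40, then 34 and 43, then 35 and 38, with overlap between the groups. MARCKSL1, a regulator of actin, had 39 and 41, then 59 and 60, then 32 and 45, with enzyme-only the highest. BSG, a partner of lactate transporters, had 39 and 38, then 40 and 40, then 30 and 26. None of these 5 held UGCAUG, and none was called by limma against either control.

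The other 5 most edited held the 4 of these 10 that were called higher against buffer-only. Over all tested short 3' UTRs 52.9% were called higher, and over all regions 38.4%. PDIA6, an oxidoreductase of the endoplasmic reticulum, had 76 and 80 edited Cs of 153, then 26 and 49 in enzyme-only and 25 and 24 in buffer-only. PRDX3, a mitochondrial peroxidase gene with 1 UGCAUG, had 78 and 60 edited Cs of 120, then 29 and 36, then 13 and 17. NARS1, the cytosolic asparaginyl-tRNA synthetase gene, with 1 UGCAUG and a 3' UTR of 999 nt at the upper edge of the class, had 77 and 68, then 18 and 42, then 15 and 19. TOP2A, the topoisomerase of dividing cells, had 50 and 62, then 23 and 45, then 17 and 10. For these 4 the limma adjusted p against buffer-only was 0.00787 for the first 3 and 0.0104 for TOP2A. YWHAH, with 1 UGCAUG, had 31 and 69, then 30 and 49, then 30 and 22, and was not called (limma adjusted p = 0.152).

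The short 3' UTRs of several gene groups were also compared with enzyme-only, and differences between gene groups were not tested. Limma called 0 members of any group in that comparison. Its unadjusted p was under 0.05 for 5 of 15 tested chaperones, 5 of 20 SR, hnRNP and snRNP proteins, 4 of 21 cell division 3' UTRs, 3 of 13 translation factors, 2 of 9 ZNF genes, 2 of 13 solute carriers and 1 of 7 mitochondrial ribosomal proteins, and for no tested member of the other groups. The same held for 21.3% of all tested short 3' UTRs and 13% of all tested regions. Over all short 3' UTRs, the ratio of edited Cs per C, RBFOX2-INSCRIBE over enzyme-only, was 1.59. It was 1.84 for 27 chaperone transcripts and 1.75 for 49 of cell division genes. Among the chaperones DNAJB6, with 1 UGCAUG, had 46 and 49 edited Cs against 9 and 20 in enzyme-only, and CCT6A, a subunit of the cytosolic chaperonin, had 33 and 39 against 13 and 21. HSPD1, the mitochondrial chaperonin gene, had 27 and 35 against 10 and 28, so its groups overlapped. In cell division, CDK1, the mitotic kinase gene, had 58 and 45 against 21 and 29. CENPF, a kinetochore protein gene, had 37 and 44 against 12 and 20, and KIF23, a kinesin of cytokinesis, had 21 and 26 against 4 and 11. CCNB1, the mitotic cyclin gene, had 32 and 17 against 6 and 29, which overlapped. Against buffer-only, limma called 12 of 15 tested chaperone 3' UTRs and 8 of 16 of cell division higher, and no member of these lists lower, where 38.4% of all regions and 52.9% of the tested short 3' UTRs were called higher. The same background stands behind each count against buffer-only that follows.

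Zinc finger (ZNF) transcripts had a ratio of 1.73 and solute carriers 1.56. SLC25A13, a mitochondrial aspartate-glutamate carrier gene with 1 UGCAUG, had 32 and 24 edited Cs against 6 and 5 in enzyme-only, and SLC20A1, a phosphate transporter gene, had 44 and 29 against 8 and 19. Of 14 tested solute carriers limma called 7 higher against buffer-only, and of 8 tested ZNF 3' UTRs it called 4, beside the 52.9% of tested short 3' UTRs. SR, hnRNP and snRNP protein transcripts had 1.51, with HNRNPH2 at 45 and 43 edited Cs against 12 and 31, while SRSF4, an SR splicing factor gene, had 13 and 14 against 21 and 15. Limma called 7 of 15 of them higher against buffer-only, again beside 52.9%. Translation factors had 1.30. EIF4G2 had 47 and 48 against 10 and 24, whereas EIF4A1, the helicase of initiation, had 26 and 17 against 30 and 33, and limma called 3 of 11 higher against buffer-only, a smaller share than the 52.9% of tested short 3' UTRs and the 38.4% of all regions.

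The 4 groups with the shortest 3' UTRs had lower ratios than the groups above, and the histones were lower still. The proteasome list (symbols PSMA to PSMG, median 259 nt) had 1.15 and the respiratory chain and ATP synthase list (176 nt) 1.14. For mitochondrial ribosomal protein transcripts (386 nt) the edited Cs numbered 103 and 93 with RBFOX2-INSCRIBE, against 94 and 70 with enzyme alone. Against buffer-only limma called 4 of 7, 3 of 6 and 2 of 6 of those tested higher, beside 38.4% of all regions and 52.9% of tested short 3' UTRs. MRPL3, a mitochondrial ribosomal protein gene, had 21 and 27 edited Cs against 13 and 22 in enzyme-only. PSMD10 of the proteasome list had 38 and 18 against 18 and 21, and SDHD of succinate dehydrogenase had 42 and 18 against 13 and 18. Cytosolic ribosomal protein transcripts had 3' UTRs with a median of 73.0 nt, of which 38 had an edited C and 2 passed the filter against enzyme-only. They had 44 and 16 edited Cs in RBFOX2-INSCRIBE, 56 and 22 in enzyme-only and 16 and 15 in buffer-only, a ratio of 0.769 to enzyme-only with wide overlap. The 3 histone transcripts, of which H2AZ1 held most edits with 19 and 9 against 29 and 13, had 0.673. Length and gene group moved together here, and the part of each was not tested.

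In 72 genes with edited isoforms of both classes and at least 10 edited Cs in each, short and long 3' UTR isoforms were compared within the gene. The median log2 ratio of edited Cs per C, short over long, was 0.42 and 0.32 in RBFOX2-INSCRIBE, 0.76 and 0.74 in enzyme-only, and 0.67 and -0.04 in buffer-only. The median was above 0 in 5 of the 6 libraries, but by group means the short isoform was the lower one in 31 of the 72 genes in RBFOX2-INSCRIBE, 25 in enzyme-only and 28 in buffer-only. The median was smaller in RBFOX2-INSCRIBE than in enzyme-only by 0.38 on the log2 scale. The medians of these 2 groups did not overlap, with an exact permutation p of 0.333, the smallest possible, and the buffer-only libraries spanned both. MTHFD1, a folate enzyme gene, had the largest difference, with 15 and 20 edited Cs in its short 3' UTR in RBFOX2-INSCRIBE and 4 and 7 in enzyme-only, while its long 3' UTR had 0 and 0, then 0 and 12. CTPS1, an enzyme gene of CTP synthesis, had 25 and 17, then 6 and 19, in the short 3' UTR, and 6 and 8, then 0 and 0, in the long one. EXPH5 had 9 and 0 short against 5 and 4 long edits in RBFOX2-INSCRIBE, and RHOT1 0 and 10 against 11 and 14, so both rested on few edits. HELLS, a chromatin remodeller gene, had 93 and 109 edited Cs in its long 3' UTR in RBFOX2-INSCRIBE and 49 and 0 in enzyme-only, with 4 and 3, then 0 and 1, in the short one.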

How the data were processed

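The deposited values were edit fractions, 1 for each edited C on each transcript in each library. According to the study's methods, the authors aligned PacBio full-length reads to hg38 with pbmm2, assigned them to isoforms with IsoQuant (reads unique to 1 isoform), called C-to-U edits with their own scripts, and removed edits shared across samples and those in dbSNP. Such a removal also takes out recurrent edited Cs. Positions were placed on GENCODE release 44 transcripts, whose coding sequence leaves out the stop codon, which therefore counts as 3' UTR here. The annotation release used by the authors is not given in the sources used here. A distinct site was counted once, on the transcript with the lowest identifier.

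Python 3.11.15 and pandas 2.3.3 were used for counting, and limma 3.58.1 in R 4.3.3 (lmFit, eBayes with trend and robust) for tests over regions, each checked on simulated data. Group values were compared by exact permutation over libraries. Expected shares came from all Cs of the same 3' UTRs, weighted by the edited Cs of each. Genes were named by rule: the 10 smallest limma p against enzyme-only, the highest recurrent sites, the 10 most edited 3' UTRs, up to 4 most edited of each of 11 lists made by symbol, and the 5 largest isoform differences. The 2 3' UTRs called lower were named after their values were seen. DEPDC1, DCUN1D4 and APP, also in the rule, had no edited short 3' UTR. One further site of the rule, in ERICH1, is not reported here. Members and lists were chosen with earlier results of these data known. Alternatives are given in the closing section.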

Additional observations from a re-analysis of the deposited data

How the results depend on the processing

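The ratio of sites, the UGCAUG enrichment, its short minus long difference, the gain of short against long 3' UTRs, the share after A or U, the share with a fraction of at least 0.02, the isoform difference and the ratio of 3' UTRs with to without UGCAUG kept their direction under every alternative run, but some sizes moved by over 1.5 times. The UGCAUG enrichment difference between RBFOX2-INSCRIBE and enzyme-only was 0.244, 0.624 unweighted, 0.444 with fractions of at least 0.02 and 0.0497 under 500 nt. The short minus long difference went from -0.330 to -0.806 with fractions of at least 0.02. The gain of short against long 3' UTRs was -0.342, -0.168 with fractions of at least 0.02, -0.598 and -0.184 at limits of 500 and 2000 nt, -0.0751 without enzyme-only replicate 2, -0.775 without replicate 3 and -0.212 without RBFOX2-INSCRIBE replicate 2. The share with a fraction of at least 0.02 differed by 0.905 percentage points, by 0.237 without RBFOX2-INSCRIBE replicate 2 by 1.57 without replicate 1, and by 2.91 and 0.456 for minimum fractions of 0.01 and 0.05. The isoform difference was -0.384 and -0.0705 with fractions of at least 0.02, with 17 genes left. The comparison of 3' UTRs with and without UGCAUG, and its alternatives, were added after seeing the data. The share of edited Cs in the last 100 nt, RBFOX2-INSCRIBE minus buffer-only, was 0.0219 percentage points and turned to -0.922 with fractions of at least 0.02 and to -0.625 for the last 200 nt, and ran from -0.607 to 0.651 as single libraries were left out. The share of RBFOX2-INSCRIBE sites in both replicates was 29.2% of the smaller library, 25.9% of the larger one, and 6.96% of the smaller with fractions of at least 0.02.

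Against enzyme-only, limma called 2 short 3' UTRs with a pseudocount of 1 and 3 with a minimum mean of 5 edited Cs. Against buffer-only it called 0 after scaling to the same total, 11 of 36 with fractions of at least 0.02, 251 without trend and robust fit, and 0 to 105 as single libraries were left out. Enzyme-only against buffer-only gave 10 with a pseudocount of 1, 24 with a minimum mean of 5 edited Cs, and 0 to 61 as single libraries were left out, the 61 without enzyme-only replicate 2. With 1 library left in a group, it is assumed to vary like the other group. Scaling lowered the median of all regions by 0.76 (log2) against enzyme-only, after which 51.7% of the short 3' UTRs were higher in place of 77.8%. The cause of these changes was not tested.

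Libraries with the same number in the labels' replicate field, 1 and 2 in each group, were checked for pairing. The correlation of their deviations was 0.144, -0.007 and -0.039 between the 3 pairs of groups. The titles number the enzyme-only libraries otherwise, so for that group the check cannot show whether the title numbers pair libraries. With the number of the replicate field as a block, limma called 37 short 3' UTRs against enzyme-only, 445 against buffer-only and 11 for enzyme-only against buffer-only. No edit fraction has a known depth, and 2 libraries a group limit every comparison.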
